A study of Homo sapiens with 6 samples.

Results

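The transcripts described here are the named antisense RNAs of HT-1080, a long-established line from a human fibrosarcoma, set beside the genes they are named after. A member is a gene whose symbol ends in -AS and digits, whose mean over the 6 libraries was 5 or more, and whose symbol before -AS belongs to another gene of the same table. Members were selected on that mean level and on their names, and the sense gene's response did not enter the choice. Of 22925 genes in the table, 427 had such a symbol, 242 of these reached the mean, and 224 also had a sense gene by symbol. The 224 members have 223 sense genes, because PAXIP1-AS1 and PAXIP1-AS2 share PAXIP1. Another 171 antisense RNAs with a sense gene lay under the mean and were not tested, and 18 reached it but had no sense symbol. TSPEAR-AS1, SOCS2-AS1 and TAF1A-AS1 were just left out, with means of 4.92, 4.92 and 4.99. SLC2A1-AS1, PKP4-AS1 and ALKBH3-AS1 were just kept, with means of 5.02, 5.02 and 5.03. The mean was under 5 in the DMSO libraries for 20 members and in the PhenDC3 libraries for 8, so these 28 passed through the group where they were higher, and the measured values had a part in their choice.

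Both groups are cultures of the same line, grown with serum and kept for 48 h in medium with 1% DMSO. In 1 group, 20 μM PhenDC3 was added to that solvent, and each group has 3 libraries made from poly(A) RNA with a strand-preserving kit. PhenDC3 is a synthetic ligand of G quadruplexes, the stacked folds of guanine-rich nucleic acid, which it stabilizes. The comparison asks which transcripts differ in abundance between cells with the ligand and cells with solvent alone. A single cell line stands for each condition, and the labels do not say whether replicates were separate cultures, so the tests measure only the spread between these libraries. Of the markers checked, all 7 mesenchymal genes were present, and VIM, which encodes vimentin, averaged 25153 in DMSO. Summed mesenchymal markers ranged from 60012 to 64321 in DMSO and from 41609 to 43189 in PhenDC3. The 2 epithelial markers in the table, ESRP1 and CLDN4, summed to between 59.3 and 71.6 in DMSO and between 65.6 and 75.9 in PhenDC3. ESRP1 was at 0 in every DMSO library. The 2 endothelial markers, VWF and EGFL7, summed to between 227 and 302 and to between 235 and 317, and EGFL7 carried nearly all of it. The 4 blood markers were not matched by symbol and are not analysed here. DMSO libraries held 12574952 to 14292987 reads and PhenDC3 libraries 7371056 to 9386691. Mitochondrial genes took 3.72% to 3.96% of reads in DMSO and 15.4% to 15.5% in PhenDC3, and their part in the results below was not tested.

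An antisense RNA is transcribed from the strand opposite to a neighbouring gene. Some start beside the sense promoter and run away from it, some start within or beyond the sense gene and run back through its exons, and some lie in its introns. Many such transcripts stay in the nucleus and are degraded soon after synthesis by the RNA exosome, so they are usually scarcer than the messenger RNA. A few are known to raise or lower the output of their sense gene, while others only share its promoter.

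A G quadruplex motif was searched in the 300 bases around each start that RefSeq gives on GRCh38.p14, from 250 bases before to 50 after. The motif was 4 runs of GGG with loops of 1 to 7 N between them, and both strands were read. Windows were found for 179 members and 181 sense genes, with more than 1 window where a gene has several starts. The motif was present in 81 of 224 member windows, which is 36.2%, and in 96 of 293 sense windows, which is 32.8%. It was present in 32.9% of the 18185 windows of genes in the table and in 25% of all 35116 windows. The windows of 3 pairs are printed because they combine neighbouring starts with some of the largest differences between antisense and sense change, and they were chosen after those values were seen. Capitals mark the motif, which stands as runs of G where it is on the gene's own strand and as runs of C where it is on the other strand.

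MAFG-AS1: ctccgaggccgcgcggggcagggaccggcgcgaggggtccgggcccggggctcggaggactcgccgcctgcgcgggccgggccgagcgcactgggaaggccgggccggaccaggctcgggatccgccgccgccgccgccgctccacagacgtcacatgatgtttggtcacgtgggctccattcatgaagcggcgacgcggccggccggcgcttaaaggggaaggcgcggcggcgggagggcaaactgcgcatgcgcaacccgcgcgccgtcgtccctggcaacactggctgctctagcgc

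MAFG: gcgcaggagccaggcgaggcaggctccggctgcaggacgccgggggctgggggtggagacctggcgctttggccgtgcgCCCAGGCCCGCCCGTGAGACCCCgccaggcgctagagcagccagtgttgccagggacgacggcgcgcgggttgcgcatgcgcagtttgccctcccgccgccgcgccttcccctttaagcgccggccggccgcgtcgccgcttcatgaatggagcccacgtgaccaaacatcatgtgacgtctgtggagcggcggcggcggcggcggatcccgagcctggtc

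SUCLG2-AS1: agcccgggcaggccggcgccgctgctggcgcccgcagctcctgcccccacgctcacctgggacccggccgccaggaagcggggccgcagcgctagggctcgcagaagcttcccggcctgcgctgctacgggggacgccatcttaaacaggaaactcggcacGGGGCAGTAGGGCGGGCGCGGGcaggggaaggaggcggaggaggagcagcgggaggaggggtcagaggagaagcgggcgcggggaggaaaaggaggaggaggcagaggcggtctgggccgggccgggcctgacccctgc

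SUCLG2: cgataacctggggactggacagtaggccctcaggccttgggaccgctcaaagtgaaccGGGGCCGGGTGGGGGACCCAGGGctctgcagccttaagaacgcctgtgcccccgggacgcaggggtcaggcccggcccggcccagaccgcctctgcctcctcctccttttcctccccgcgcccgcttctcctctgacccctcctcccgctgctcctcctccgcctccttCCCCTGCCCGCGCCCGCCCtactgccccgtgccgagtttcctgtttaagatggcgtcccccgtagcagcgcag

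SCAMP1-AS1: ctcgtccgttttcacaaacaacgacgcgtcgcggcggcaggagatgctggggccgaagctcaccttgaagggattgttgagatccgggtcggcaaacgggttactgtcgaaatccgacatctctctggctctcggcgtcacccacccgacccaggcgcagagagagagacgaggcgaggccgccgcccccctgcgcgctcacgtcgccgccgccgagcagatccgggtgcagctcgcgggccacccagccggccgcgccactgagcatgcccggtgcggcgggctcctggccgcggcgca

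SCAMP1: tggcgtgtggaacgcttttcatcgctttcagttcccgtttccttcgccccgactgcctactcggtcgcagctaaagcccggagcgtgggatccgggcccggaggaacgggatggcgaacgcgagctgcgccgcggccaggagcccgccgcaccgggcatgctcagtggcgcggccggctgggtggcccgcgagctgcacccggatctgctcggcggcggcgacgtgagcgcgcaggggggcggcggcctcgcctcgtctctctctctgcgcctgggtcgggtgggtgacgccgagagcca

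The MAFG-AS1 window is chr17:81927579-81927878 on the plus strand, under the current symbol MILIP, and the MAFG window is chr17:81927686-81927985 on the minus strand. Their starts lie 94 bases apart and point away from each other, so the windows share 193 bases, read on opposite strands. The SUCLG2-AS1 window, under the current symbol SUCLG2-DT, is chr3:67654447-67654746 on the plus strand, and that of SUCLG2 is chr3:67654563-67654862 on the minus strand, with starts 85 bases apart. SCAMP1-AS1 is read at chr5:78360492-78360791 on the minus strand and SCAMP1 at chr5:78360367-78360666 on the plus strand, with starts 76 bases apart. Neither the MAFG-AS1 window nor either SCAMP1 window holds the motif. The MAFG window holds it on the other strand, SUCLG2-AS1 on its own strand, and SUCLG2 on both. The motif in SUCLG2-AS1 and the runs of C in SUCLG2 overlap on the same stretch of DNA. Members with the motif in a window numbered 70, of which 21 (30%) rose and 14 (20%) fell with a median log2 change of 0.07. Of 109 members without it, 37 (33.9%) rose and 12 (11%) fell, with a median of 0.23. Of all 16482 genes tested, 29.2% rose and 30.4% fell. The members' counts are a description, since motif and response were not compared by a test.

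Levels are numbers of reads, each divided by the size factor that the authors used for that library. A log2 change is the PhenDC3 mean less the DMSO mean of log2(level + 1), with its standard error, and this scale understates the change of scarce transcripts. A gene is called where limma's test over all 16482 genes with a mean of 5 or more gave a Benjamini-Hochberg adjusted p under 0.05.

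Antisense members rose more often than they fell, with the authors' size factors and under the other 2 scalings tried. With PhenDC3, 74 members rose, 31 fell and 119 did not pass, so 33% were higher, against 29.2% of all tested genes, and 13.8% were lower, against 30.4%. Either call was made for 46.9% of members and for 59.6% of all tested genes. The median log2 change was 0.22 for members and -0.02 for all tested genes, and the plot of cumulative shares shows the members' curve lying to the right. By 2-fold or more, 39 members rose and 13 fell, where 9.87% of all tested genes rose and 6.46% fell that far. The libraries of the groups did not overlap for 118 members, or 52.7%, against 64.1% of all tested genes. PhenDC3 lay above in 82 of the 224 members and below in 36, and above in 5197 and below in 5375 of all 16482 genes. Most members were scarce, with a median level of 22.5 and 103 under 20. Among the 121 with a mean of 20 or more, 51 (42.1%) rose and 22 (18.2%) fell, against 30.7% and 35.6% of all genes at that level. Among the scarcer ones 23 (22.3%) rose and 9 (8.7%) fell, close to the 23.3% and 10.4% of all genes tested with a mean under 20. Of the members with a DMSO mean under 5, 9 rose, each by 2-fold or more, and of those with a PhenDC3 mean under 5 none was called. The other 196 members, with both group means at 5 or more, included 65 that rose (33.2%) and 31 that fell (15.8%), where 27.9% and 31.6% of all such genes did. By 2-fold or more, 30 of these 196 rose and 13 fell, against 1137 and 928 of all 15425 such genes. In reads, the median member had 25 to 27 per DMSO library and 15 to 19 per PhenDC3 library. Members together took 0.149% to 0.152% of reads in DMSO and 0.165% to 0.169% in PhenDC3, so the PhenDC3 libraries lay above throughout. A few abundant members weigh heavily on this share. Summed levels were 14564 to 14925 in DMSO and 18088 to 18536 in PhenDC3. Within them, LRRC75A-AS1 averaged 4335 and 5080, and APCDD1L-AS1 285 and 1526.

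**Figure D1:**
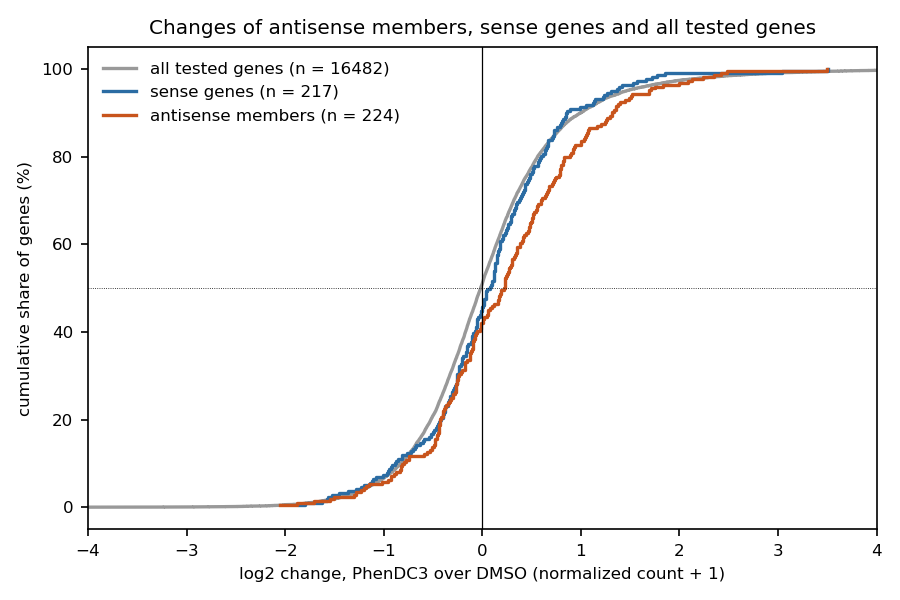
Cumulative share of genes (vertical axis, %) by log2 change of PhenDC3 over DMSO (horizontal axis) for the 224 antisense members, the 217 tested sense genes and all 16482 tested genes. The members' curve crosses 50% at 0.22, that of the sense genes at 0.08 and that of all genes at -0.02; the axis ends at -4 and 4.

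These changes are relative to the other transcripts of the library. Scaling each library to its total reads, mitochondrial ones included, moved the median of all genes to -0.18. The members were then called 58 times higher and 40 times lower, around a median of 0.06, where 21.7% of all genes were called higher and 40.1% lower. Without mitochondrial genes in the total, the counts were 75 and 30, against 30.1% and 29.4% of all genes. Less of a transcript per cell and fewer cells that make it cannot be told apart in bulk RNA.

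The largest rise was that of TM4SF19-AS1 (ENSG00000235897, chromosome 3). TM4SF19 itself encodes a membrane protein of the tetraspanin-like L6 family. TM4SF19-AS1 stood at 23.3, 19.3 and 21.4 in the DMSO libraries and at 254, 289 and 214 in the PhenDC3 libraries. All PhenDC3 libraries lay far above all DMSO libraries, and the log2 change was 3.50 ± 0.15 (adjusted p = 1.69e-13). TM4SF19 went from 52.7 ± 3.97 to 607 ± 24.7 (SD, n = 3), a log2 change of 3.50 ± 0.10 (adjusted p = 5.53e-16). The antisense change less the sense change, called the pair difference here, was -0.01 with a 95% interval of -0.34 to 0.33. In GENCODE 29, 539 bases, or 25.2% of the exonic bases of TM4SF19-AS1, also lie in exons of TM4SF19. The strand setting of the counting was not given in the sources used here, so reads in such shared bases cannot be assigned to one strand or the other.

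APCDD1L-AS1, now named APCDD1L-DT for divergent transcript, was the most abundant of the strong risers. It stood at 300.4, 300.02 and 254 in DMSO and at 1608, 1501 and 1468 in PhenDC3. No library of one group came near the other, and the log2 change was 2.42 ± 0.08 (adjusted p = 2.66e-15). APCDD1L, a relative of a secreted-signal inhibitor of the Wnt pathway, was scarce at 11.7, 11.6 and 20.7 in DMSO and 24.9, 14.9 and 26.2 in PhenDC3. Its libraries overlapped and its change of 0.56 ± 0.30 was not called (adjusted p = 0.111), though it was called without DMSO replicate 3 (0.82, adjusted p = 0.0344) or PhenDC3 replicate 2 (0.81, adjusted p = 0.0301). The pair difference of 1.86 (95% interval 1.20 to 2.51) was called, and the starts lie 248 bases apart with no shared exonic base. Per 1000 exonic bases, the antisense level was 57.6 against 3.72 for the sense gene in DMSO, and 309 against 5.58 in PhenDC3.

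ZMIZ1-AS1 lies upstream of ZMIZ1, a coactivator of the PIAS-like family, without overlapping it. Its levels were 23.3, 22.4 and 26.9 in DMSO and 103, 101 and 125 in PhenDC3, so the groups were far apart. The antisense RNA rose by 2.13 ± 0.17 (adjusted p = 1.21e-09), while ZMIZ1 rose by 0.67 ± 0.07 from 1122 ± 93.6 to 1784 ± 71.1. The pair difference of 1.46 was called (adjusted p = 7.28e-07).

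SLC7A11-AS1 is named after the cystine and glutamate exchanger that feeds glutathione synthesis. It was scarce in DMSO, at 8.56, 13.1 and 6.21, and reached 43.8, 35.7 and 44.6 in PhenDC3. Every PhenDC3 library lay above every DMSO library, and both RNAs of the pair rose, SLC7A11-AS1 by 2.09 ± 0.27 and SLC7A11 by 1.66 ± 0.08. SLC7A11 had means of 964 ± 121 and 3033 ± 266. The pair difference of 0.43 had a 95% interval of -0.13 to 1.00 and was not called, and 14% of the antisense exonic bases are shared with SLC7A11 exons.

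Among the next rises, ATP2C2-AS1 went from 7.78, 8.51 and 13.1 to 40.2, 37.2 and 32.8. Its sense gene, for a calcium pump of the secretory pathway, changed by 0.41 ± 0.21 and was not called (adjusted p = 0.0995), although 64.3% of the antisense exonic bases are shared. Without DMSO replicate 2 or PhenDC3 replicate 3, ATP2C2 was called higher, at 0.57 (adjusted p = 0.0396) and 0.58 (adjusted p = 0.0348). The ATP2C2-AS1 groups were apart and its log2 change was 1.83 ± 0.26 (adjusted p = 5.03e-06). PARD6G-AS1 lies in the span of PARD6G, a cell polarity gene, without sharing exons. It stood at 14.8, 10.1 and 9.65 in DMSO and 35.5, 43.2 and 38.05 in PhenDC3, and rose by 1.69 where PARD6G rose by 0.99. ZNF529-AS1, which shares 149 exonic bases with the zinc finger gene ZNF529, moved from 10.1, 14.7 and 11.03 to 36.7, 32.8 and 38.05, with every PhenDC3 library above every DMSO library. It rose by 1.52 and ZNF529 by 1.23, and their pair difference was not called (0.29, 95% interval -0.25 to 0.83). SRP14-AS1, now SRP14-DT, starts 123 bases from SRP14, which encodes a subunit of the signal recognition particle. SRP14-AS1 rose by 1.44, from 40.5, 49.5 and 40.7 to 137, 127 and 98.4. SRP14 averaged 1571 ± 78.7 in DMSO and 1566 ± 35.3 in PhenDC3, and its groups overlapped. Under scaling to total reads SRP14 was called lower, at -0.17 (adjusted p = 0.0264). Here the pair difference of 1.45 (95% interval 1.11 to 1.78) was called.

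**Figure D2:**
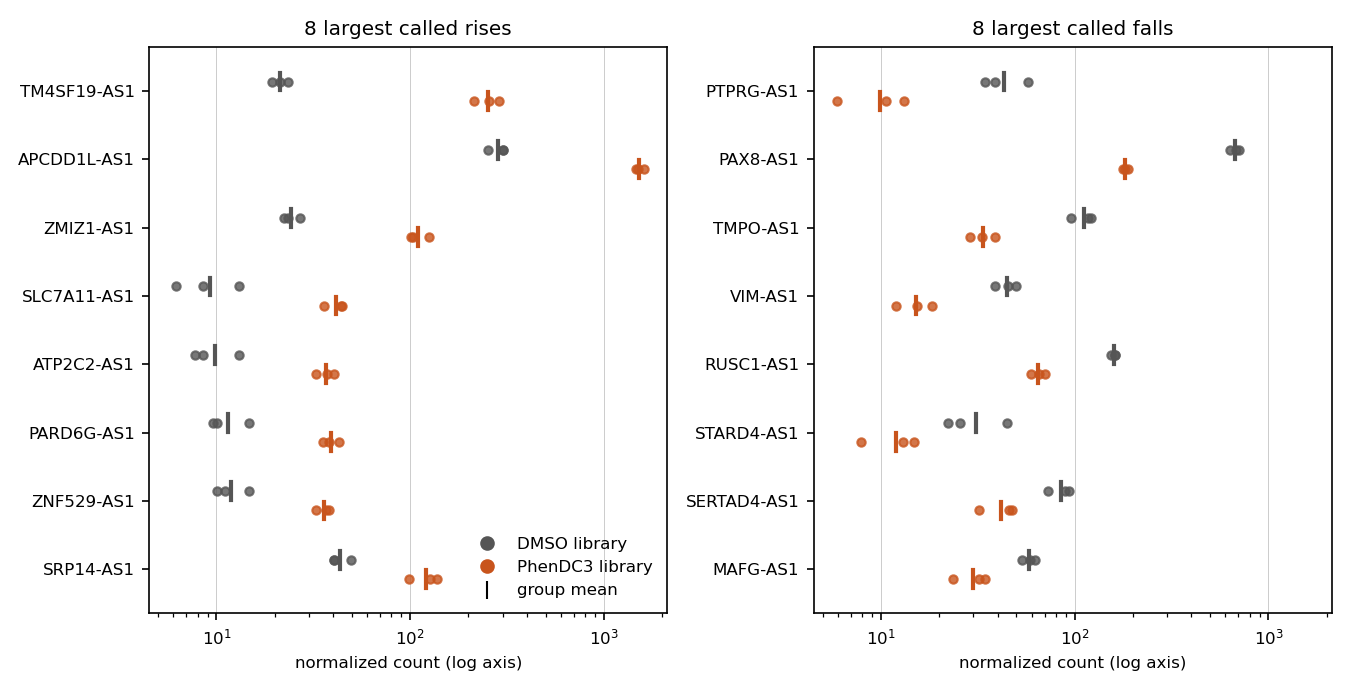
Normalized count (horizontal log axis) of the 8 largest called rises, left, and the 8 largest called falls, right, among members with a mean of 20 or more. Each point is a library and each vertical bar a group mean; in all 16 members the PhenDC3 libraries lie wholly on one side of the DMSO libraries.

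PTPRG-AS1 showed the deepest fall. Its sense gene encodes a receptor tyrosine phosphatase. PTPRG-AS1 stood at 34.2, 57.2 and 38.6 in DMSO and 10.7, 5.95 and 13.1 in PhenDC3. Every PhenDC3 library lay under every DMSO library, with a log2 change of -2.05 ± 0.29 (adjusted p = 4.19e-06). PTPRG fell from 1975 ± 284 to 978 ± 40.9, by 1.00 on the log2 scale, and the pair difference of -1.05 was called (adjusted p = 0.00522).

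PAX8-AS1 was the most abundant member to fall this far, with levels of 706, 678 and 634 in DMSO and 189, 177 and 181 in PhenDC3. The groups were well separated, and the log2 change was -1.88 ± 0.08 (adjusted p = 2.84e-13). PAX8, a transcription factor of thyroid and kidney development, stood at 35.02, 29.4 and 34.5 in DMSO and 43.8, 34.2 and 30.2 in PhenDC3. Its groups overlapped, and its change of 0.11 ± 0.20 was not called (adjusted p = 0.653). The pair difference was -1.99 (95% interval -2.41 to -1.57). Per 1000 exonic bases, PAX8-AS1 stood at 38.9 in DMSO, above PAX8 at 4.45, and in PhenDC3 at 10.6 and 4.87.

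TMPO-AS1 starts 910 bases from TMPO, the gene of the lamina-associated polypeptides of the nuclear envelope. It fell from 118, 95.9 and 122 to 33.1, 38.7 and 28.9, with no overlap, by 1.71 on the log2 scale (adjusted p = 2.37e-08). TMPO fell as well, from 2643 ± 93.4 to 1127 ± 40.6, and 21.2% of the antisense exonic bases are shared. The antisense fell further than the sense gene, with a pair difference of -0.48 (adjusted p = 0.0204). Without DMSO replicate 1 or 3, or PhenDC3 replicate 3, that difference was not called (adjusted p = 0.0866, 0.0932 and 0.0901).

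VIM-AS1 runs antisense to VIM, the vimentin gene, and shares 641 exonic bases with it, or 32.2% of its own. It stood at 45.1, 38.7 and 49.6 in DMSO and 15.4, 11.9 and 18.4 in PhenDC3. Both RNAs were lower in every PhenDC3 library, VIM-AS1 by 1.5 and VIM by 0.88 on the log2 scale. VIM averaged 25153 ± 2162 and 13620.3 ± 153. Per 1000 exonic bases, VIM stood at 4877 and VIM-AS1 at 22.3 in DMSO, and how far VIM reads enter the VIM-AS1 count was not tested.

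RUSC1-AS1 stood at 162, 155 and 161 in DMSO and 59.2, 69.97 and 65.6 in PhenDC3. The groups were far apart for the antisense RNA, which fell by 1.28 on the log2 scale (adjusted p = 3.05e-08), and overlapped for RUSC1 at 584 ± 20.3 and 619 ± 55.6. STARD4-AS1 moved with STARD4, which encodes a carrier of cholesterol between membranes. The antisense levels were 25.7, 44.8 and 22.1 in DMSO and 13.02, 14.9 and 7.87 in PhenDC3, with every PhenDC3 library lower. STARD4-AS1 fell by 1.28 and STARD4 by 1.12 on the log2 scale, and the pair difference was not called (-0.16, 95% interval -0.80 to 0.48). SERTAD4-AS1 went from 73.2, 88.9 and 93.1 to 31.95, 47.6 and 45.9. It fell by 1.02 on the log2 scale, while SERTAD4 changed by -0.21 ± 0.11 and was not called (adjusted p = 0.123), though it was without PhenDC3 replicate 2, at -0.32 (adjusted p = 0.0225), and under scaling to total reads, at -0.37 (adjusted p = 0.00787).

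Sense genes were tested for 217 of 223. With PhenDC3, 79 (36.4%) rose and 66 (30.4%) fell, so 66.8% were called, where 29.2% of all tested genes rose, 30.4% fell and 59.6% were called. These shares were not matched for level, and the median level of the sense genes was 402. Of all genes tested with a mean of 20 or more, 30.7% rose, 35.6% fell and 66.2% were called. The median log2 change of the sense genes was 0.08, which became -0.08 under scaling to total reads. By 2-fold or more, 19 rose and 16 fell, against 9.87% and 6.46% of all tested genes. For 218 pairs both RNAs were tested. Both passed in 68 pairs, of which 35 rose together, 15 fell together and 18 moved in opposite directions. In 33 pairs only the antisense RNA passed, in 78 only the sense gene, and in 39 neither.

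Pairs that rose together without being named above included LBX2-AS1 and LBX2, at 1.39 and 1.39 on the log2 scale. BAIAP2-AS1, now BAIAP2-DT, rose by 0.82 and BAIAP2 by 1.30. FBXL19-AS1 rose by 0.73 and FBXL19 by 1.22. Among pairs that fell together, HHIP-AS1 fell by 0.93 and HHIP, a hedgehog-binding protein, by 1.80. TRHDE-AS1 fell by 0.48 and its sense gene by 1.29. TGFB2-AS1 fell by 1.23 and TGFB2, a growth factor of the TGF-beta family, by 1.57. These examples were chosen after their values were seen.

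Across the 218 pairs, the log2 changes of antisense and sense had a Pearson r of 0.41 and a Spearman rho of 0.32. Each point shares its libraries and size factors with all others, and the coefficients are a description. Where exons overlap and the starts are over 1000 bases apart, r was 0.52 and rho 0.38 over 103 pairs. With starts within 1000 bases, r was 0.32 and rho 0.28 over 84 pairs. Where the spans overlap but the exons do not, r was 0.08 and rho 0.13 over 25 pairs. Exonic bases were shared by 154 members with their sense genes, at a median of 10.7% of the member's own exonic bases, and 39 members shared 25% or more. The differences between these layouts were not tested.

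**Figure D3:**
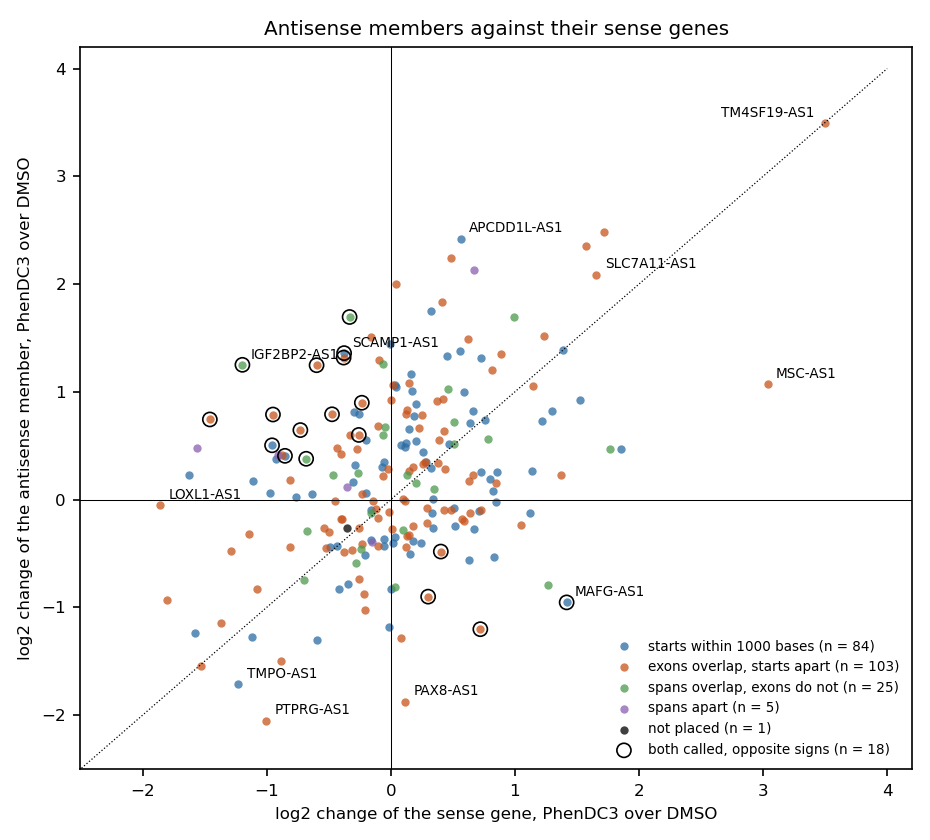
Log2 change of each antisense member (vertical axis) against that of its sense gene (horizontal axis), 218 pairs, coloured by how the genes lie in GENCODE 29. Rings mark the 18 pairs with both genes called in opposite directions, 14 of them at upper left with the antisense higher and 4 at lower right; the dotted line marks equal change.

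The layout of a pair was set beside the members' calls and the 29.2% of all tested genes that rose and 30.4% that fell. With overlapping exons and distant starts, 36 of 108 (33.3%) rose and 17 (15.7%) fell. With starts within 1000 bases, 29 of 84 (34.5%) rose and 12 (14.3%) fell. With overlapping spans alone, 8 of 26 (30.8%) rose and 2 (7.7%) fell. In these 3 layouts the share that rose lay near that of all tested genes and the share that fell lay under it. The shares were not matched for level, and 103 of the 224 members had a mean under 20. Of all genes tested at that level, 23.3% rose and 10.4% fell. Of those at 20 or more, 30.7% rose and 35.6% fell. Of the 5 pairs whose spans lie apart, ZMIZ1-AS1 rose and no member fell, and RALY-AS1 could not be placed and was not called. Current nomenclature gives 28 members the suffix -DT, for transcripts that diverge from a neighbour's promoter. Of these, 10 (35.7%) rose and 3 (10.7%) fell around a median of 0.45, and of the other 196 members, 64 (32.7%) rose and 28 (14.3%) fell around 0.16. The share called was 46.4% and 46.9%, against 59.6% of all tested genes.

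The pair difference was called for 100 of 218 pairs, with the antisense change above the sense change in 63 and below it in 37. Of all 16700 genes and pair differences tested together, 59.4% were called. Of these rows 16482 are single genes, so that share is not a background rate for pair differences. The median pair difference was 0.13. Since both RNAs of a pair come from the same library, the size factor has almost no part in this difference, and scaling to total reads gave 63 and 38 calls. The split was closer with a minimum mean of 20 for both RNAs. Of 109 such pairs, the antisense change was called above in 39 and below in 30, around a median of 0.07. Members were chosen by mean level, and 20 had a DMSO mean under 5 against 8 with a PhenDC3 mean under 5. Pair differences were not counted without these members, so their part in the split was not tested.

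MAFG-AS1 and MAFG, whose windows are printed above, moved furthest apart among pairs with both means of 20 or more. MAFG is a small Maf protein that pairs with NRF2 and related factors on antioxidant response elements. MAFG-AS1 stood at 53.7, 62.6 and 58.6 in DMSO and 31.95, 34.2 and 23.6 in PhenDC3, and MAFG at 729, 684 and 712 in DMSO and 1975, 1855 and 1851 in PhenDC3. Every PhenDC3 library lay below the DMSO libraries for the antisense RNA and above them for MAFG. MAFG-AS1 fell by 0.95 on the log2 scale (adjusted p = 2.20e-04) and MAFG rose by 1.42 ± 0.07 (adjusted p = 4.37e-13). The pair difference was -2.37 (95% interval -2.77 to -1.97, adjusted p = 1.52e-09), and no exonic base is shared.

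SCAMP1-AS1 and SCAMP1, which encodes a carrier protein of secretory membranes, moved the other way. The antisense RNA stood at 37.4, 46.4 and 32.4 in DMSO and 107, 93.8 and 99.7 in PhenDC3, while SCAMP1 stood at 651, 614 and 574 in DMSO and 425, 508 and 487 in PhenDC3. The groups were apart for both RNAs, the antisense rising by 1.36 ± 0.16 (adjusted p = 5.06e-07) and SCAMP1 falling by 0.38 on the log2 scale (adjusted p = 6.97e-04). Their pair difference was 1.74 (95% interval 1.38 to 2.09).

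SUCLG2-AS1 was not called while its neighbour fell. SUCLG2 encodes a subunit of succinyl-CoA ligase, an enzyme of the citric acid cycle. SUCLG2-AS1 stood at 26.5, 23.97 and 22.1 in DMSO and 22.5, 38.7 and 26.2 in PhenDC3, with overlapping groups and no call (0.23 ± 0.24, adjusted p = 0.423). SUCLG2 stood at 614, 683 and 695 in DMSO and 206, 220.3 and 218 in PhenDC3, all PhenDC3 libraries far below, and fell by 1.62 on the log2 scale (adjusted p = 2.38e-12). The pair difference was 1.85 (95% interval 1.36 to 2.35).

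LOXL1-AS1 showed the same contrast at a higher level. It stood at 249, 227 and 222 in DMSO and 234, 231 and 209 in PhenDC3, with overlapping groups and a change of -0.05 ± 0.10 (adjusted p = 0.68). LOXL1, which cross-links elastin, went from 514, 466 and 517 to 139.7, 131 and 139, a fall of 1.86 on the log2 scale. The pair difference was 1.81 (95% interval 1.6 to 2.02). Per 1000 exonic bases, LOXL1-AS1 stood at 55.1 against 137 for LOXL1 in DMSO and at 53.2 against 37.6 in PhenDC3, so the antisense RNA stood below the sense gene in DMSO and above it in PhenDC3.

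MSC-AS1, LPP-AS2 and LURAP1L-AS1 are among the 6 members, in pairs with both means of 20 or more, whose change lay furthest below that of the sense gene, with MAFG-AS1, PAX8-AS1 and RUSC1-AS1. MSC-AS1 went from 16.3, 18.6 and 16.5 to 30.8, 37.2 and 44.6, and MSC, a repressor of the basic helix-loop-helix family, from 3.89, 3.09 and 9.65 to 43.8, 55.1 and 45.9. Both were higher in every PhenDC3 library, MSC-AS1 by 1.07 and MSC by 3.04 on the log2 scale. LPP-AS2 stood at 28.02, 37.9 and 32.4 in DMSO and 28.4, 22.3 and 17.1 in PhenDC3, overlapping between groups. Its change of -0.54 ± 0.23 was not called (adjusted p = 0.0554), while LPP, an adaptor of focal adhesions, rose by 0.83 ± 0.11. Without PhenDC3 replicate 1, the LPP-AS2 change was called at -0.71 (adjusted p = 0.0235), as it was under scaling to total reads at -0.69 (adjusted p = 0.014) and with the replicate block at -0.54 (adjusted p = 0.047). LURAP1L-AS1 stood at 17.9, 20.1 and 28.96 in DMSO and 37.9, 25.3 and 30.2 in PhenDC3 and was not called (0.47 ± 0.24, adjusted p = 0.0993), where LURAP1L rose by 1.77 ± 0.11. Without DMSO replicate 3, the LURAP1L-AS1 change was called at 0.67 (adjusted p = 0.0366). The pair differences of MSC-AS1, LPP-AS2 and LURAP1L-AS1 were -1.96, -1.37 and -1.30, all called. The smaller called differences shown in the plot of pair differences, those of PARD6G-AS1, MAGI2-AS3 and VIM-AS1, were each lost without single libraries. Their highest adjusted p was 0.0774 for PARD6G-AS1 without DMSO replicate 3, 0.145 for MAGI2-AS3 without PhenDC3 replicate 1 and 0.0914 for VIM-AS1 without DMSO replicate 1. PARD6G-AS1 was also lost without PhenDC3 replicate 2, MAGI2-AS3 without DMSO replicate 1 or PhenDC3 replicate 2, and VIM-AS1 without DMSO replicate 3 or PhenDC3 replicate 2.

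**Figure D4:**
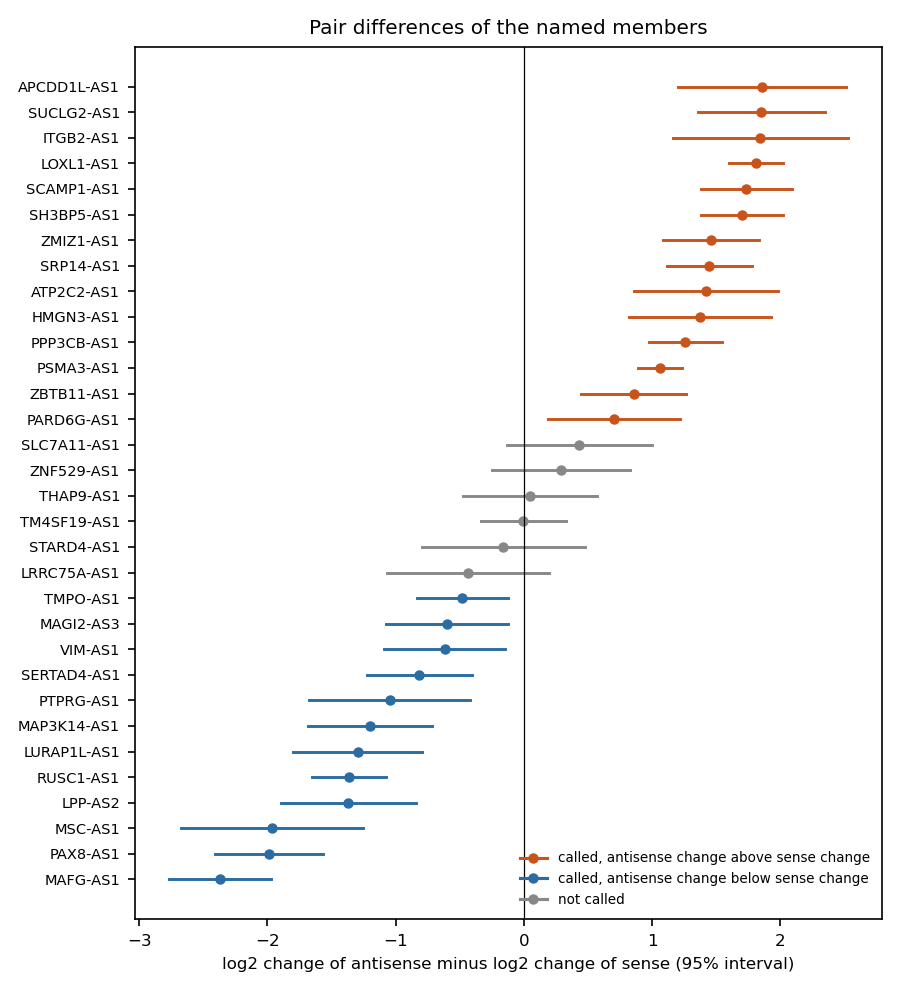
Pair difference (antisense log2 change minus sense log2 change, horizontal axis) with its 95% interval for 32 members, one row each, in order. APCDD1L-AS1, at 1.86, is at the top and MAFG-AS1, at -2.37, at the bottom, while intervals in grey cross 0.

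Of the 18 pairs called in opposite directions, the antisense RNA was the one that rose in 14 and the one that fell in 4. Antisense rises also outnumbered falls in the pairs called in the same direction, with 35 rising and 15 falling together. In the authors' deposited table, and at an adjusted p under 0.01, the split of opposite pairs was 6 and 3. The MAFG and SCAMP1 pairs are among the 18, and 7 more with both means of 20 or more follow. ITGB2-AS1 stood at 9.34, 10.1 and 20.7 in DMSO and 33.1, 43.2 and 20.99 in PhenDC3, so its highest DMSO library and lowest PhenDC3 library nearly met. It rose by 1.25 ± 0.31 (adjusted p = 0.00182), and ITGB2, an integrin chain known from leukocytes, fell from 165 ± 15.3 to 109 ± 18.6 (adjusted p = 6.84e-04). SH3BP5-AS1 went from 35.8, 42.5 and 37.9 to 107, 78.9 and 112, with no overlap. It rose by 1.32, against a fall of 0.38 for SH3BP5 (adjusted p = 0.0318), although 34.4% of its exonic bases are shared. The SH3BP5 call was lost without DMSO replicate 1, 2 or 3 (adjusted p = 0.0621, 0.0625 and 0.0591) and without PhenDC3 replicate 2, where the change was -0.20 (adjusted p = 0.192). The authors' deposited table did not call SH3BP5 either (-0.35, adjusted p = 0.149). DESeq2, rerun on the reads recovered from it, repeated that result and is not separate evidence.

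PSMA3-AS1 was abundant and its change small. It stood at 374, 406 and 386 in DMSO and 463, 548 and 510.4 in PhenDC3. The groups did not overlap, the log2 change was 0.38 ± 0.08 (adjusted p = 6.32e-04), and PSMA3, a proteasome core subunit, fell from 1339 ± 84.3 to 834 ± 47.9. PPP3CB-AS1 went from 80.9, 85.1 and 71.03 to 88.8, 116 and 112, and PPP3CB, a catalytic subunit of calcineurin, from 529 ± 22.2 to 293 ± 23.9. The groups were apart for both RNAs, with an antisense log2 change of 0.41 ± 0.14 (adjusted p = 0.0188).

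MAP3K14-AS1 fell while its sense gene, for a kinase of the noncanonical NF-kappa-B pathway, rose. The antisense RNA stood at 28.02, 36.3 and 27.6 in DMSO and 15.4, 16.4 and 15.7 in PhenDC3, with every PhenDC3 library lower. Its log2 change was -0.90 ± 0.23 (adjusted p = 0.0025), and MAP3K14 went from 663 ± 33.6 to 817 ± 19.2, a change of 0.30 ± 0.07 (adjusted p = 0.00115). Under scaling to total reads the MAP3K14 change was 0.14 and was not called (adjusted p = 0.105). The pair difference of -1.20 was called (adjusted p = 1.5e-04).

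HMGN3-AS1 was scarce, at 19.5, 15.5 and 14.5 in DMSO and 26.04, 20.8 and 32.8 in PhenDC3, and HMGN3, a nucleosome-binding protein, went from 184 ± 20.01 to 110.4 ± 8.99. ZBTB11-AS1 went from 45.1, 33.3 and 43.4 to 47.3, 62.5 and 78.7, while ZBTB11, a zinc finger protein, fell from 920.4 ± 79.7 to 769 ± 58.2 (adjusted p = 0.00887). Of the exonic bases of ZBTB11-AS1, 32.5% are shared with ZBTB11. The groups were apart for both antisense RNAs, with log2 changes of 0.65 ± 0.25 (adjusted p = 0.0337) and 0.60 ± 0.20 (adjusted p = 0.0125). The calls of PPP3CB-AS1, HMGN3-AS1 and ZBTB11-AS1 were marginal and were lost when some single libraries were left out. Without DMSO replicate 2 the adjusted p was 0.0822 for HMGN3-AS1 and 0.065 for ZBTB11-AS1, and without DMSO replicate 3 it was 0.0659 for PPP3CB-AS1 and 0.0972 for HMGN3-AS1. Without PhenDC3 replicate 1 it was 0.0672 for HMGN3-AS1, and without PhenDC3 replicate 2 it was 0.0773 for PPP3CB-AS1. Without PhenDC3 replicate 3 it was 0.0691 for PPP3CB-AS1, 0.151 for HMGN3-AS1 and 0.0932 for ZBTB11-AS1. The sense gene ZBTB11 lost its call without DMSO replicate 1 (adjusted p = 0.0557) or PhenDC3 replicate 1 (adjusted p = 0.0574). Under scaling to total reads the adjusted p was 0.101 for HMGN3-AS1, 0.149 for PPP3CB-AS1 and 0.0607 for ZBTB11-AS1. With all libraries kept, the authors' deposited table, and DESeq2 rerun on the reads recovered from it, did not call these antisense changes. There the adjusted p was 0.159 for HMGN3-AS1, 0.0895 for PPP3CB-AS1 and 0.053 for ZBTB11-AS1. The pair differences were called in the reported fit, at 1.26 for PPP3CB-AS1, 1.37 for HMGN3-AS1 and 0.86 for ZBTB11-AS1.

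Opposite pairs with a scarcer RNA were those of ATP6V0E2-AS1, IGF2BP2-AS1, KANSL1-AS1, NDUFB2-AS1, PLS3-AS1 and VASH1-AS1. IGF2BP2-AS1 rose by 1.25 against a fall of 1.20 for IGF2BP2, an RNA-binding protein. KANSL1-AS1 fell by 1.20 against a rise of 0.72 for KANSL1, a subunit of a histone acetyltransferase complex.

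**Figure D5:**
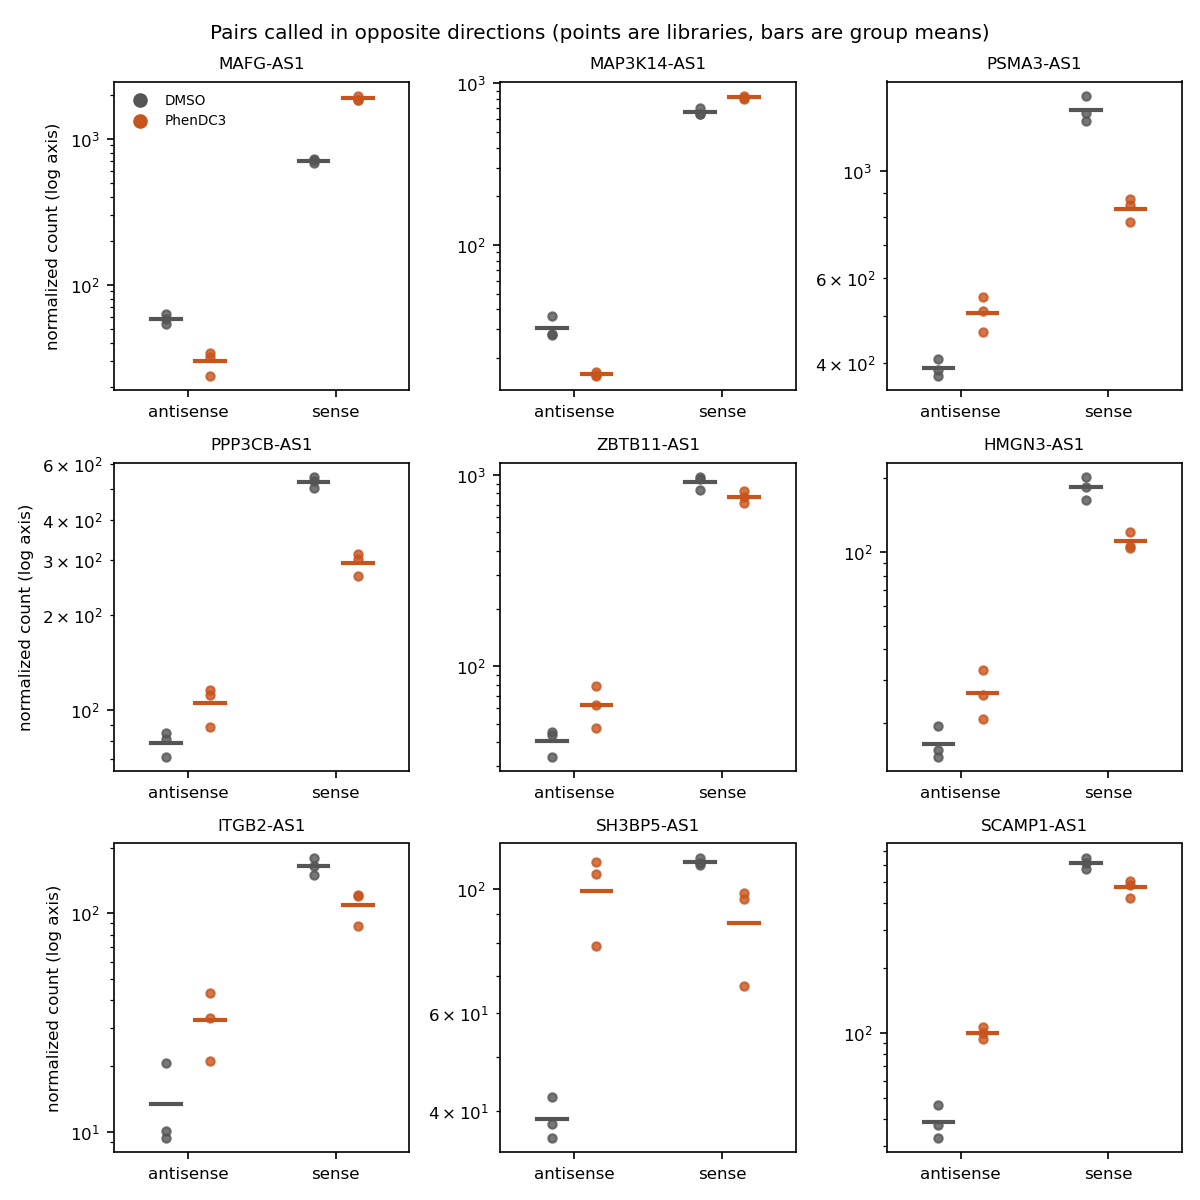
Normalized counts (vertical log axis, with its own range in each panel) of antisense and sense RNA in 9 pairs called in opposite directions. Points are libraries and bars group means; in each panel the PhenDC3 points lie on opposite sides of the DMSO points for the 2 RNAs.

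The most abundant member was LRRC75A-AS1, now named SNHG29, a host gene of small nucleolar RNAs. It stood at 4227, 4199.6 and 4577 in DMSO and 5143, 5048 and 5047 in PhenDC3. All PhenDC3 libraries were higher, with a change of 0.23 ± 0.06 (adjusted p = 0.00203), but under scaling to total reads it was 0.06 (adjusted p = 0.345). LRRC75A was scarce, from 9.37 ± 1.44 to 15.5 ± 2.37, with all PhenDC3 libraries higher, and was not called (0.67 ± 0.30, adjusted p = 0.0654). Without the variance trend LRRC75A was called (adjusted p = 0.0113), and so was the pair difference of -0.44 (adjusted p = 0.0325, against 0.222 with the trend). APCDD1L-AS1 and PSMA3-AS1, described above, came next with MAGI2-AS3 and THAP9-AS1. MAGI2-AS3 stood at 307, 355 and 262 in DMSO and 570.4, 621 and 556 in PhenDC3, wholly apart. It rose by 0.93 ± 0.10 (adjusted p = 9.05e-08), and MAGI2, a scaffold of cell junctions, rose by 1.53 ± 0.23 from 18.1 ± 3.85 to 54.2 ± 12.1. THAP9-AS1 went from 489, 508 and 529 to 359, 408 and 361, all PhenDC3 libraries being lower, by 0.44 on the log2 scale (adjusted p = 1.28e-04). THAP9, a gene derived from a transposase, overlapped between groups and was not called (-0.49 ± 0.26, adjusted p = 0.108). Without PhenDC3 replicate 3, THAP9 was called lower at -0.76 (adjusted p = 0.0158), as it was under scaling to total reads at -0.65 (adjusted p = 0.0346).

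Per 1000 exonic bases, most antisense RNAs stood below their sense genes. The median ratio of sense to antisense level was 8.24 in DMSO and 7.99 in PhenDC3 over 223 pairs with a length. The antisense RNA stood above the sense gene in 40 pairs in DMSO and in 39 in PhenDC3.

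Other noncoding RNAs were counted by symbol in the same test. Of 118 intergenic RNAs named LINC with digits, 51 (43.2%) rose and 16 (13.6%) fell, around a median log2 change of 0.36. Of all tested genes 29.2% rose and 30.4% fell, but these shares were not matched for level. Among all genes tested with a mean under 20, 23.3% rose and 10.4% fell, and among those at 20 or more, 30.7% and 35.6%. Of 18 antisense RNAs without a sense symbol, 3 rose and 2 fell, and of 9 named -AS without digits, 2 rose and 2 fell. Of 2 intronic RNAs named -IT with digits, 1 rose and none fell. Differences between these classes and the members were not tested.

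The nuclear RNA exosome and the factors that bring RNA to it degrade many antisense transcripts. Of 21 genes tested, in a list that also holds the nuclease XRN2, 6 (28.6%) rose, 10 (47.6%) fell and 5 did not pass. Their median log2 change was -0.15. Of all tested genes 29.2% rose and 30.4% fell, around a median of -0.02. All 21 had a mean of 20 or more, and of all genes at that level 30.7% rose and 35.6% fell. Among core subunits, EXOSC8 fell from 582 ± 44.9 to 262 ± 29.5 and EXOSC3 from 591 ± 37.4 to 362 ± 35.9, while EXOSC4 rose from 175 ± 6.19 to 232 ± 18.6. DIS3, a catalytic subunit, averaged 1339 ± 103 in DMSO and 1214 ± 59.8 in PhenDC3 and was not called (log2 change -0.14, adjusted p = 0.0957). The catalytic subunit EXOSC10 changed by -0.16 and passed (adjusted p = 0.0463). ZFC3H1, which links poly(A) RNA to the exosome in the nucleus, rose from 996 ± 124 to 1581 ± 177. Their relation to the members' changes was not tested.

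The authors' deposited table, at its own adjusted p under 0.05, called 54 members higher and 18 lower, and 39.0% of the genes for which it gives an adjusted p. All 72 were called in the same direction here. The number of pairs called in opposite directions in the authors' deposited table was 9, and these 9 were among the 18 given here.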

How the data were processed

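RNA from 6 libraries of HT-1080 cells, 3 with PhenDC3 and 3 with DMSO alone, was compared, grouped by the labels. Per the submitters' processing notes, the build was hg19 and the tools were STAR 2.7, TopHat2 2.0.11, featureCounts, Cufflinks 2.2.1, DESeq2 1.18.1, CASAVA and Cuffdiff, with the step of each unstated. The gene annotation, and whether reads were counted by strand, were not given in the sources used here. Deposited columns of signal hold normalized gene counts, which the authors had divided by a size factor per library. Divided by what 1 read is worth, 100% of the entries in each library came out whole (relative tolerance 1e-06), and reads were recovered that way. The authors' deposited log2 fold change and adjusted p-value columns were used only where the deposited table is named.

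Limma 3.58.1 in R 4.3.3 was fitted to log2(value + 1) of 16482 genes with a mean of 5 or more, with a variance trend on the mean, no replicate block and Benjamini-Hochberg adjustment at 0.05. Pair differences were tested in a separate fit, in which they were added as rows to the same genes. The unit assumed in the design was met by its provision for normalized values, and edgeR 4.0.16 and DESeq2 1.42.0 were run on the recovered reads as alternatives. edgeR called 9437 of 14984 genes. The script was tested on simulated data. Other alternatives were 2 pseudocounts, 2 minimum means, 2 scalings, no trend, 2 stricter thresholds, the replicate block and leaving out each library. A count over genes with both group means at 5 or more was added after the data were seen.

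GENCODE 29 on GRCh38 gave exons, layouts and lengths for 223 members, since no annotation of the deposited build was used, and RefSeq gave start windows. No coordinates were converted. Members and lists were chosen with earlier results of these data known. Values of every library are given for the 8 largest called rises and falls with a mean of 20 or more. They are also given for the 6 largest called pair differences each way and up to 10 opposite pairs, with both means of 20 or more, and for the 5 most abundant members. Some members that this rule takes are not reported here. Tables and plots were made in Python 3.11.15 with pandas 2.3.3, numpy 2.4.6 and matplotlib 3.10.9.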

Additional observations from a re-analysis of the deposited data

How the results depend on the processing

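The number of pairs called in opposite directions was the least stable count. It was 18 in the reported fit, 9 at an adjusted p under 0.01 and 1 where both changes had to be 2-fold. It was also 9 with DESeq2 and in the authors' deposited table, which rest on the same reads and each called 8418 genes. Leaving out 1 library gave 11 to 17 opposite pairs, with the lowest value without DMSO replicate 2. Requiring a 2-fold change left 2692 of all tested genes, 52 members, 35 sense genes and 49 pair differences. Scaling to total reads gave 16 opposite pairs, of which 10 were among the 18, and turned the sense genes' median from 0.08 to -0.08. The remaining settings kept the 5 counts within 1.5 times the reported ones, and the 2 count models and the deposited table gave no pair differences. Leaving out 1 library gave 90 to 101 members, 140 to 153 sense genes and 84 to 97 pair differences. No member called in the reported fit and in another had the other sign. With the replicate block, 106 members were called, 73 higher and 33 lower, with 20 opposite pairs and 105 pair differences. Samples with the same number correlated by 0.008, 0.071 and 0.027 in their deviations from the group means, so the numbers were not taken as pairing. Of 384 values of the named members under other settings, 367 kept their call, and of 192 with 1 library left out, 181 did, with 0 reversed. Their sense genes kept 180 of 192 calls with 1 library left out, and their pair differences 181 of 192, again with 0 reversed. The causes of these differences were not tested. Of members under a mean of 20, 31.1% were called, and of the others 60.3%; of all tested genes at these levels, 33.7% and 66.2% were.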
